A study of Mus musculus with 11 samples.

Results

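The intracisternal A particle (IAP) and early transposon (ETn/MusD) elements of the mouse were followed here as 30 repeat subfamilies, out of 1243 repeat subfamilies and 58223 entries counted in each library. They are the entries of family ERVK whose subfamily name begins, in any letter case, with IAP, ETn, MMETn or RLTRETN, a rule on names alone. The 30 comprise 10 internal parts of IAP elements, 15 IAP long terminal repeats (LTRs), 4 internal parts of ETn/MusD elements and 1 ETn/MusD LTR, and the other 255 ERVK subfamilies fall outside the rule. RNA was sequenced from cultured primary lung fibroblasts, from 6 cGAS-deficient mice (KO: 3 males and 3 females) and 5 wild-type mice (WT: 3 males and 2 females). cGAS is the cytosolic DNA sensor whose signal through STING induces interferons. The series title names premature aging and derepression of LINE-1 elements in mice without it, so the question here is whether IAP and ETn/MusD transcripts differ between KO and WT cells. The labels give no strain, age or allele. They number the mice within a genotype and sex but do not say whether cultures were grown and prepared separately, so the p-values measure the spread between these samples.

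IAP elements are endogenous retroviruses that make intracellular particles. The internal part of an intact copy carries the gag and pol genes between 2 LTRs, which hold the promoter and the polyadenylation signal, and many copies survive as lone LTRs. IAPE elements, from which the IAPEy and IAPEY subfamilies take their names, are a lineage with an envelope gene of which copies were amplified on the mouse Y chromosome. ETn elements code for no proteins of their own and are mobilised by the proteins of the related MusD elements. These families can be held down by DNA methylation and by TRIM28, to a degree that depends on the cell type. Zinc finger proteins bring TRIM28 to the elements, and TRIM28 recruits the histone methyltransferase SETDB1. The families stand out among mouse retroelements because new insertions of IAP and ETn/MusD copies still cause mutations.

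Levels are given as CPM, deposited counts scaled by library size. A subfamily's count sums reads over all its copies, whose number and length are not in the files, so levels are compared between libraries, and a larger count for one subfamily than for another does not show more RNA per copy or per length. Total counts ran from 27261958 to 48039328 per library. Repeats took 5.31% to 10.2% of the counts, and the 30 subfamilies took 0.0593% to 0.0777% of all counts. WT female 2 stood apart, with the highest repeat share and the highest CPM for 80.4% of the 1085 repeat subfamilies tested, against 26.5% of all entries. Sums over 12 fibroblast markers were 37478 to 51561 CPM in KO libraries and 40537 to 55269 CPM in WT libraries. Fn1, Col1a1 and Col1a2 held most of these sums, so the sums do not show that each fibroblast marker was abundant. Over the libraries Pdgfra was at 141 to 470 CPM, but Tcf21 was at 3.45 to 5.64 CPM and Lum at 0.48 to 6.40 CPM. Other cells were present too. Sums over 20 leukocyte and macrophage markers were 9327 to 15645 CPM in KO libraries and 6518 to 9871 CPM in WT libraries, and 16 of the 18 markers tested had a positive fold change. Sums over 14 epithelial markers were 11.5 to 37.6 CPM in KO libraries and 22.9 to 58.0 CPM in WT libraries, and those over 12 endothelial markers 127 to 190 CPM and 124 to 164 CPM. Of these lists, 0 markers were at 0 in all libraries, but some were near it, such as Cd3e with 0 or 1 counts per library. Over both sexes 8 of 14 epithelial and 18 of 20 leukocyte and macrophage markers passed the low-count filter. In bulk RNA, fewer cells of a type and less RNA per cell cannot be told apart. The targeted gene Cgas was at 2.07 ± 0.25 CPM in KO and 8.26 ± 1.76 CPM in WT libraries (SD, n = 6 and n = 5), a log2 fold change of −1.99 (SE 0.16, edgeR adjusted p = 0.00102).

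Summed over subfamilies, IAP and ETn/MusD transcripts were at similar levels in KO and WT cells, and the ranges of the genotypes overlapped for all 4 sums. Internal parts of IAP elements summed to 517 ± 62.9 CPM in KO and 540 ± 43.8 CPM in WT libraries, a log2 ratio of −0.06. IAP LTRs summed to 103 ± 11.3 CPM in KO and 108 ± 16.2 CPM in WT libraries, a log2 ratio of −0.07. For ETn/MusD internal parts the sums were 48.0 ± 8.76 CPM in KO and 52.9 ± 6.48 CPM in WT libraries, a log2 ratio of −0.14. The ETn/MusD LTR, RLTRETN_Mm, was at 7.46 ± 1.70 CPM in KO and 8.45 ± 1.64 CPM in WT libraries, a log2 ratio of −0.18 (all SD, n = 6 and n = 5). These sums were given no test. Over the same libraries all repeats summed to 65542 ± 10305 CPM in KO and 75785 ± 19414 CPM in WT, a log2 ratio of −0.21, and LINE-1 elements to 6087 ± 1184 CPM and 6837 ± 1747 CPM, a log2 ratio of −0.17. As a share of the repeat counts in place of all counts, the IAP internal and LTR sums had log2 ratios of 0.10 and 0.11. Their sign thus changed with what they were set against. The IAP and ETn/MusD subfamilies together took 0.708% of repeat counts in WT female 2, against 0.897% to 1.19% in the other WT libraries. In KO libraries the share was 0.880% to 1.17%. The part of WT female 2 in the positive sign was not tested.

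**Figure D1:**
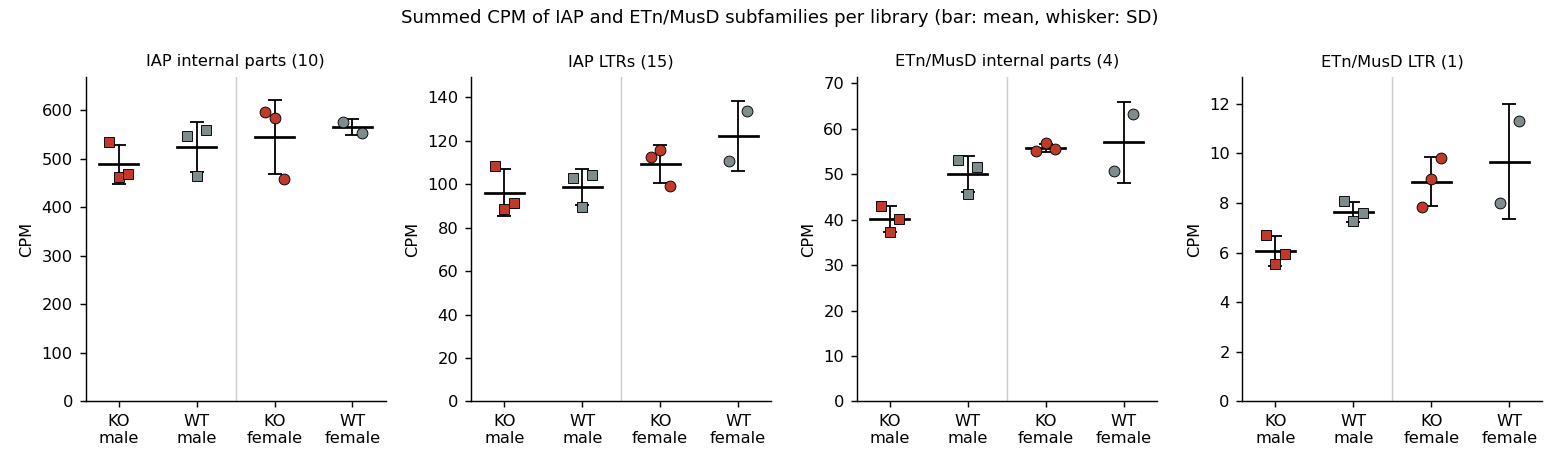
Summed CPM (vertical axis) of IAP internal parts, IAP LTRs, ETn/MusD internal parts and the ETn/MusD LTR in each of the 11 libraries, by genotype and sex, with the group mean (bar) and SD (whisker). KO and WT points overlap for both IAP sums; in males the KO points of both ETn/MusD sums lie below the WT points, at 37.3 to 43.1 CPM against 45.6 to 53.2 CPM for internal parts.

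Within sexes, the KO and WT ranges of both ETn/MusD sums lay apart in males and overlapped in females. This was also so for the SINE sum, at 26304 to 28759 CPM in KO males, against 29877 to 32487 CPM in WT males. The difference between the sexes in the genotype effect did not pass the test for MMETn-int or RLTRETN_Mm (edgeR adjusted p = 0.351 and 0.704). ETn/MusD internal parts summed to 43.1, 37.3 and 40.2 CPM in KO males, against 53.2, 45.6 and 51.6 CPM in WT males. In females they summed to 55.1, 56.9 and 55.5 CPM in KO, against 50.7 and 63.3 CPM in WT. The KO females lay between the WT females. For the IAP internal sum, KO males had 535, 462 and 468 CPM, against 547, 464 and 560.0 CPM in WT males, and KO females had 596, 584 and 458 CPM, against 576 and 553 CPM in WT females. Here the genotypes overlapped in both sexes.

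One subfamily held most of the counts, which are not corrected for length or copy number. IAPEz-int, the internal part of the main group of full-length IAP elements, held 60.01% of all counts of the 30 subfamilies (53.1% to 63.9% by library). IAPEY4_I, an internal part of the IAPE lineage, followed with 14.1% (6.55% to 21.9%), and IAPLTR1_Mm, the LTR that goes with IAPEz-int, with 6.48%. At the other end, IAPLTR4_I had 2 to 11 counts per library and did not pass the low-count filter, which the other 29 subfamilies passed. IAPEY5_LTR passed with 3 to 12 counts per library. A count of 0 would allow up to 3 counts, or 0.0624 to 0.110 CPM across the libraries, so values of these subfamilies rest on few reads, and such limits cover counting error only.

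Over both sexes no subfamily passed the test. Of 29 tested with edgeR, 0 had an adjusted p under 0.05, where 0.00448% of all 22298 entries tested did (1 entry, Cgas), and 1 had an unadjusted p under 0.05, where 17.2% of all entries did. DESeq2 also called 0 of the 29, and 3 were called lower by limma-voom with sample quality weights (IAPEY4_I, IAPEY4_LTR and MMETn-int). Over all entries DESeq2 called 546 and limma-voom 3260. Fold changes were below 0 for 23 of 29, against 52.5% of all entries and 90.4% of all repeat subfamilies; with library sizes from repeats only, which moves the median log2 fold change of all entries to 0.21, they were below 0 for 9 of 29. The median log2 fold change was −0.14 over the 29 subfamilies, −0.02 over all entries tested, −0.26 over all repeats, −0.25 over other ERVK subfamilies and −0.25 over LINE-1. Without WT female 2 the median was −0.08 over the 29, with 19 below 0, and −0.15 over all repeats. None of the 29 separated all KO from all WT libraries, which 0.789% of all entries did on the higher and 0.426% on the lower side.

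**Figure D2:**
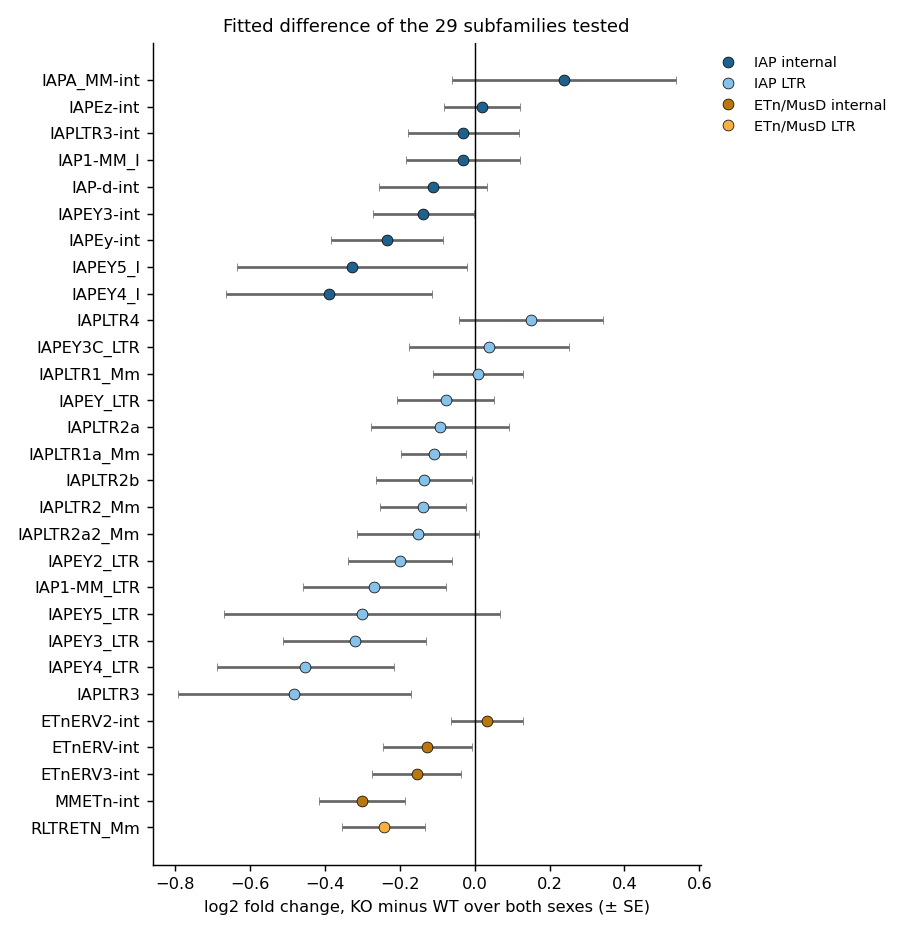
Fitted log2 fold change of KO over WT across both sexes (horizontal axis, bars ± SE) for the 29 subfamilies tested, grouped into IAP internal parts, IAP LTRs, ETn/MusD internal parts and the ETn/MusD LTR. Values run from −0.48 for IAPLTR3 to 0.24 for IAPA_MM-int, and IAPEz-int and IAPLTR1_Mm lie at 0.02 and 0.01.

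Among IAP internal parts, IAPEz-int had a lowest, median and highest level of 359, 414 and 480.0 CPM in KO libraries, against 325, 384 and 479 CPM in WT libraries. The ranges overlapped almost wholly, and the log2 fold change was 0.02 (SE 0.10, edgeR adjusted p = 0.940). IAPLTR3-int, at 4.57 ± 0.36 CPM in KO and 4.67 ± 1.33 CPM in WT libraries (SD, n = 6 and n = 5), had a log2 fold change of −0.03 (SE 0.15). The lowest p of this class belonged to IAPEy-int, an IAPE internal part, at 2.32 ± 0.38 CPM in KO and 2.66 ± 0.67 CPM in WT libraries, with a log2 fold change of −0.23 (SE 0.15, edgeR adjusted p = 0.433). IAPEY4_I was at −0.39 (SE 0.27, edgeR adjusted p = 0.479) and IAPEY5_I at −0.33 (SE 0.31). The highest fold change of the 29 was that of IAPA_MM-int, at 0.24 (SE 0.30), a scarce subfamily at 0.29 ± 0.12 CPM in KO and 0.23 ± 0.08 CPM in WT libraries.

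Among IAP LTRs, IAPLTR1_Mm, which drives IAPEz copies, had a lowest, median and highest level of 36.0, 44.5 and 52.8 CPM in KO libraries, against 32.7, 45.2 and 51.4 CPM in WT libraries. Its log2 fold change was 0.01 (SE 0.12, edgeR adjusted p = 0.981), and like that of IAPEz-int it turned below 0 under other scalings. IAPLTR2_Mm, at 14.4 ± 1.90 CPM in KO and 15.6 ± 3.82 CPM in WT libraries, was at −0.14 (SE 0.12), and IAPLTR1a_Mm, at 13.4 ± 1.44 CPM in KO and 14.2 ± 1.62 CPM in WT libraries, at −0.11 (SE 0.09). IAPEY4_LTR was at −0.45 (SE 0.24, edgeR adjusted p = 0.343) and IAPEY3_LTR at −0.32 (SE 0.19, edgeR adjusted p = 0.402). IAPLTR3 had the lowest fold change of the 29, −0.48 (SE 0.31, edgeR adjusted p = 0.437), from 0.33 ± 0.13 CPM in KO and 0.45 ± 0.16 CPM in WT libraries.

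Among ETn/MusD subfamilies, MMETn-int, the internal part of ETn, had the lowest unadjusted p of the 29. It had a lowest, median and highest level of 17.2, 21.9 and 26.3 CPM in KO libraries, against 23.2, 24.0 and 31.3 CPM in WT libraries. The KO libraries under 20 CPM were the 3 males. Its log2 fold change was −0.30 (SE 0.12, unadjusted p = 0.0235, edgeR adjusted p = 0.227), and without WT female 1 it passed (−0.40, edgeR adjusted p = 0.0493). RLTRETN_Mm was at −0.24 (SE 0.11, edgeR adjusted p = 0.294). ETnERV-int was at 11.7 ± 2.54 CPM in KO and 12.2 ± 2.16 CPM in WT libraries, with a log2 fold change of −0.13 (SE 0.12). ETnERV2-int and ETnERV3-int had log2 fold changes of 0.03 (SE 0.10) and −0.15 (SE 0.12), both far from the threshold.

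In males the IAPEY4 subfamilies, internal part and LTR, fell by 1.02 and 0.97 on the log2 scale in KO cells. IAPEY4_I was at 76.7, 68.3 and 68.6 CPM in KO males, against 150.0, 126 and 159 CPM in WT males. Every KO male lay below every WT male. The means were 71.2 ± 4.79 CPM in KO and 145 ± 17.2 CPM in WT males (SD, n = 3 each), a log2 fold change of −1.02 (SE 0.21, edgeR adjusted p = 0.0475). IAPEY4_LTR was at 4.08, 3.56 and 4.08 CPM in KO males, against 7.08, 6.87 and 8.98 CPM in WT males, again without overlap. Its log2 fold change was −0.97 (SE 0.20, edgeR adjusted p = 0.0475). These were 2 of 29 subfamilies called lower, where 0.697% of all 22960 entries tested were called lower, 1.30% were called higher and 2.00% were called in either direction. Of all 1101 repeat subfamilies tested in males they were the 2 called lower, and 3 others, outside the IAP and ETn/MusD names, were called higher, the ERV1 LTRs RLTR1B and LTR37A at log2 0.79 and 0.85 and the ERVK internal part RLTR45-int at 0.79. In the same males IAPEz-int, the main IAP internal part, was at 443, 379 and 385 CPM in KO, against 383, 325 and 384 CPM in WT, with overlap and a log2 fold change of 0.15 (SE 0.13, edgeR adjusted p = 0.537). As a share of the counts of the 30 subfamilies, IAPEY4_I took 11.1% to 11.5% in KO males, against 20.7% to 21.9% in WT males, and IAPEz-int took 63.6% to 63.9% and 53.1% to 53.9%.

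The size of the IAPEY4 difference varied little between settings, but its call did. Leaving out 1 library at a time gave log2 fold changes of −1.12 to −0.95 for IAPEY4_I and −1.04 to −0.83 for IAPEY4_LTR. Both calls were lost without any 1 of KO females 1, 2 and 3, KO males 1, 2 and 3, and WT males 1 and 3 (edgeR adjusted p = 0.0503 to 0.212). Both were kept without WT female 1, WT female 2 or WT male 2 (edgeR adjusted p = 0.0278 to 0.0415). DESeq2 gave adjusted p = 0.000403 and 0.000853 for the internal part and the LTR, and a fit on the males alone gave edgeR adjusted p = 0.0711 and 0.0734.

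**Figure D3:**
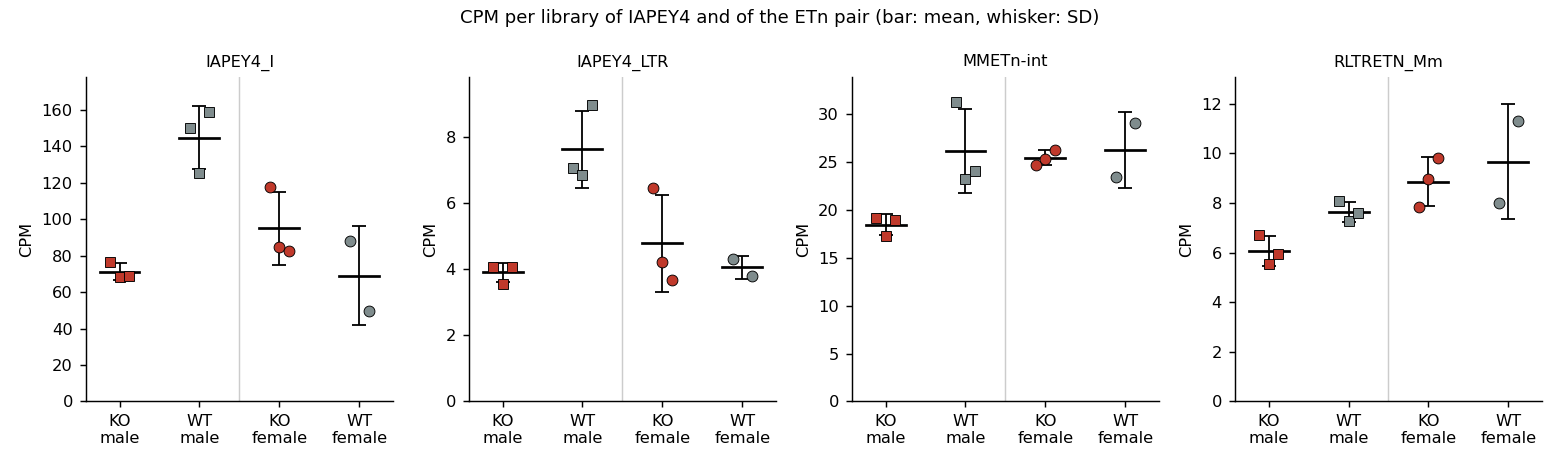
CPM (vertical axis) of IAPEY4_I, IAPEY4_LTR, MMETn-int and RLTRETN_Mm in each of the 11 libraries, by genotype and sex, with the group mean (bar) and SD (whisker). In males the KO points lie below the WT points in all 4 panels; among females the genotypes overlap in all 4, and KO female 1 has the highest IAPEY4 level of the KO libraries.

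The ETn pair was also lower in every KO male than in every WT male, without passing the edgeR test. MMETn-int was at 19.2, 17.2 and 19.0 CPM in KO males, against 31.3, 23.2 and 24.0 CPM in WT males. The log2 fold change was −0.50 (SE 0.13, edgeR adjusted p = 0.0616). RLTRETN_Mm was at 6.70, 5.52 and 5.95 CPM in KO males, against 8.07, 7.27 and 7.58 CPM in WT males, a log2 fold change of −0.33 (SE 0.15, edgeR adjusted p = 0.218). MMETn-int passed with DESeq2 (adjusted p = 0.00997), which called 2126 of all entries. With limma-voom MMETn-int and RLTRETN_Mm both passed, among 4584 of all entries called. Of the fits without 1 male library, MMETn-int passed with edgeR only without WT male 2 (adjusted p = 0.0478), where 1012 of all entries were called. Fits without a WT female leave 1 library in that group and are not counted here. Counting the IAPEY4 and ETn pairs, 6 of 29 subfamilies had all KO males below all WT males, where 13.3% of all entries did; the other 2 were IAPEY5_LTR and IAPEy-int. Among repeats this separation was more frequent, at 340 of all 1101 subfamilies tested, 83 of 237 other ERVK subfamilies and 30 of 34 SINE subfamilies. In the opposite direction IAPLTR3-int alone had all KO males above all WT males, which 17.6% of all entries had, at 4.43, 4.50 and 5.08 CPM in KO, against 4.12, 3.93 and 3.83 CPM in WT. Its log2 fold change was 0.24 (SE 0.16, edgeR adjusted p = 0.429). The highest fold change in males was that of IAPLTR4, a scarce LTR, at 0.33 (SE 0.25). In all, 19 of 29 were below 0 (52.0% of all entries were), with a median of −0.15, against −0.02 over all entries and −0.30 over all repeats.

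Other gene lists had the following values in KO and WT males. Of all 22960 entries tested in males, 52.0% were below 0 and 22.2% had an unadjusted edgeR p under 0.05. Of the same entries edgeR called 0.697% lower and 1.30% higher, DESeq2 called 2126 in all and limma-voom 4584. A list of 14 contractile genes, written after the IAPEY4 values were seen, had 14 of 14 fold changes below 0 in males. Of these, edgeR called 4 lower (Cnn1, Tpm1, Myh11 and Lmod1), DESeq2 13 and limma-voom 12. The summed level was 4587 to 6508 CPM in KO males, against 7887 to 11961 CPM in WT males, without overlap, and 7208 to 10048 CPM in KO females, against 5777 and 8592 CPM in WT females. Leukocyte and macrophage markers were above 0 in 17 of 19 cases in males, with 5 called higher by edgeR, 10 by DESeq2 and 15 by limma-voom. The sums over this list were 9327 to 15645 CPM in KO males, against 6518 to 8602 CPM in WT males. The 8 epithelial markers tested were all below 0 in males, and edgeR and DESeq2 each called 1 lower and limma-voom 6. The edgeR call was Krt19 (log2 −0.91, edgeR adjusted p = 0.0475). For 2 of them only WT male 2 was high. Sftpc was at 0.36, 10.2 and 0.13 CPM in WT males, against 0.59, 1.77 and 1.75 CPM in KO males. Sftpb was at 0.19, 8.84 and 0.26 CPM, against 0.09, 0.96 and 0.43 CPM. The sums over the epithelial list were 11.5 to 14.6 CPM in KO males, against 22.9 to 58.0 CPM in WT males. Of 12 endothelial markers, 10 had a male fold change below 0, the median was −1.96 and 10 had an unadjusted edgeR p under 0.05. By edgeR 1, Vwf, was called higher (log2 1.22, edgeR adjusted p = 0.0475) and 0 lower. DESeq2 called 1 higher and 3 lower, and limma-voom 1 higher and 6 lower. Pecam1, an endothelial marker on this list, was at 2.12, 1.88 and 0.63 CPM in KO males, against 1.77, 11.2 and 5.39 CPM in WT males, with overlap (edgeR adjusted p = 0.123). The endothelial sums, 127 to 162 CPM in KO males and 124 to 164 CPM in WT males, do not show this, as Vwf, Eng and Kdr held most of them. The part of these cells and genes in the IAPEY4 and ETn differences was not tested.

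In females 0 of 29 subfamilies were called, where 0.00436% of all entries were (1 entry, Cgas), and 0 had an unadjusted p under 0.05, which 6.66% of all entries had. DESeq2 and limma-voom called 0 as well. IAPEY4_I was at 117.8, 84.6 and 82.4 CPM in KO females, against 88.2 and 49.9 CPM in WT females. WT female 1 lay among the KO females and WT female 2 below them. The log2 fold change was 0.46 (SE 0.23, edgeR adjusted p = 0.692), the highest of the 29. IAPEY4_LTR was at 6.46, 4.24 and 3.67 CPM in KO females, against 4.31 and 3.81 CPM in WT females, with a log2 fold change of 0.25 (SE 0.23), which was −0.03 without KO female 1. Although IAPE copies are known from the Y chromosome, the female libraries thus held IAPEY4 RNA at 49.9 to 117.8 CPM, within or below the range of the males.

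MMETn-int, at 24.7, 25.3 and 26.3 CPM in KO females, against 23.5 and 29.05 CPM in WT females, had a log2 fold change of −0.04 (SE 0.14). RLTRETN_Mm, at 7.84, 8.95 and 9.80 CPM in KO females, against 8.02 and 11.3 CPM in WT females, was at −0.13 (SE 0.16). The lowest fold change in females was −0.74 (SE 0.42, edgeR adjusted p = 0.692) for IAPEY5_I, where WT female 2 had 1.02 CPM and the other 4 females 0.31 to 0.56 CPM. One LTR, IAPLTR2_Mm, had all KO females below both WT females (9.73% of all entries did), with a log2 fold change of −0.33 (SE 0.16, edgeR adjusted p = 0.692). Another, IAPEY3C_LTR, had all of them above (9.27%), at 0.42 (SE 0.28), and is named after its values were seen. Fold changes were below 0 for 20 of 29 in females (48.5% of all entries were), with a median of −0.12, against 0.01 over all entries and −0.20 over all repeats. Without WT female 2 they were below 0 for 5 of 30, with a median of 0.15, against 0.20 over all repeats, so the female direction rests on that library. Without WT female 1, edgeR called IAPEY4_I higher and IAPLTR2a2_Mm and IAPLTR3-int lower, among 3709 entries called in all. WT females are then WT female 2 alone, the library that stood apart, and it is assumed to vary like the other groups.

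The difference between the sexes in the genotype effect was tested directly. For IAPEY4_I the male minus the female log2 fold change was −1.48 (SE 0.31, unadjusted p = 0.000656, edgeR adjusted p = 0.294), and for IAPEY4_LTR it was −1.21 (SE 0.31, edgeR adjusted p = 0.294). The adjusted p of 0.294 was the lowest of all entries, so edgeR called 0% of the 22960. MMETn-int was at −0.46 (SE 0.19) and IAPLTR3-int at 0.59 (SE 0.25), and these 4 of 29 had an unadjusted p under 0.05, which 13.1% of all entries had. DESeq2 called the IAPEY4 pair (adjusted p = 0.00441 for the internal part and 0.0399 for the LTR), among 227 entries called in all, and limma-voom called 0 of the 29. With edgeR and without WT female 1 both passed (adjusted p = 0.00776 for the internal part), and IAPLTR2a2_Mm and IAPLTR3-int passed on the higher side, but WT females are then WT female 2 alone, with the spread taken from the other groups. IAPEY5_I was the highest of the 29, at 0.82 (SE 0.59), and 16 of 29 were below 0, as were 51.3% of all entries. By this test the opposite signs of IAPEY4_I in males and females are not shown to differ beyond the threshold.

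**Figure D4:**
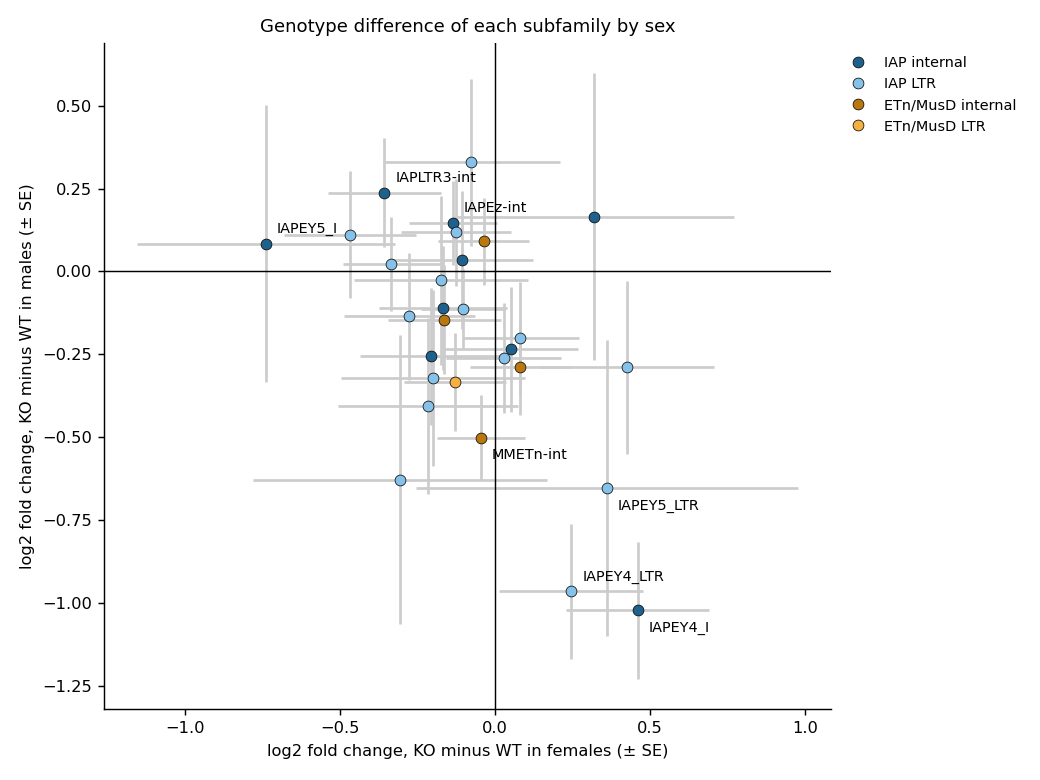
Fitted log2 fold change of KO over WT in males (vertical axis) against that in females (horizontal axis) for the 29 subfamilies tested, with bars of ± SE. IAPEY4_I and IAPEY4_LTR lie lowest on the male axis, at −1.02 and −0.97, and right of 0 on the female axis, at 0.46 and 0.25; both axes use all 11 libraries for the spread.

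Internal parts and LTRs varied together over the 11 libraries for some elements and not for others. IAPEz-int and IAPLTR1_Mm correlated at r = 0.963 (Pearson on log2 CPM, permutation p adjusted over 9 relations 0.00036; Spearman rho = 0.900, adjusted p = 0.00156), and at r = 0.960 without KO female 2 and WT female 2. IAPEY4_I and IAPEY4_LTR correlated at r = 0.918 (adjusted permutation p = 0.00099; rho = 0.918, adjusted p = 0.00156), and at r = 0.843 without WT males 1 and 3. MMETn-int and RLTRETN_Mm correlated at r = 0.848 (adjusted permutation p = 0.00405; rho = 0.918, adjusted p = 0.00156), and at r = 0.938 without KO male 2 and WT male 1. Among the 6 males these pairs gave r = 0.941, 0.980 and 0.922 (exact permutation p = 0.0333, 0.00556 and 0.00278; adjusted p = 0.075, 0.025 and 0.025), while KO and WT males lay apart for the IAPEY4 and ETn pairs. IAPEY3-int and IAPEY3_LTR gave r = 0.788 (adjusted permutation p = 0.00745) and r = 0.582 without KO female 2 and WT female 2, and r = 0.475 among males. The pairs of IAPEY5, IAPLTR3, IAPLTR4 and IAP1-MM, most of them scarce, gave r = −0.232, 0.319, −0.372 and 0.454 (adjusted permutation p = 0.241 to 0.497). All these values share library, depth and scaling.

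The balance of LTR to internal counts was alike in both genotypes. IAP elements had 19.89 ± 1.01 LTR counts per 100 internal counts in KO and 19.99 ± 2.32 in WT libraries, and ETn/MusD elements had 15.5 ± 1.21 in KO and 15.9 ± 1.22 in WT libraries (SD, n = 6 and n = 5). For IAPEY4 alone the ratio was 5.24 ± 0.50 in KO and 5.67 ± 1.16 in WT libraries. WT female 2 had the highest value of each ratio, at 24.1, 17.9 and 7.63.

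**Figure D5:**
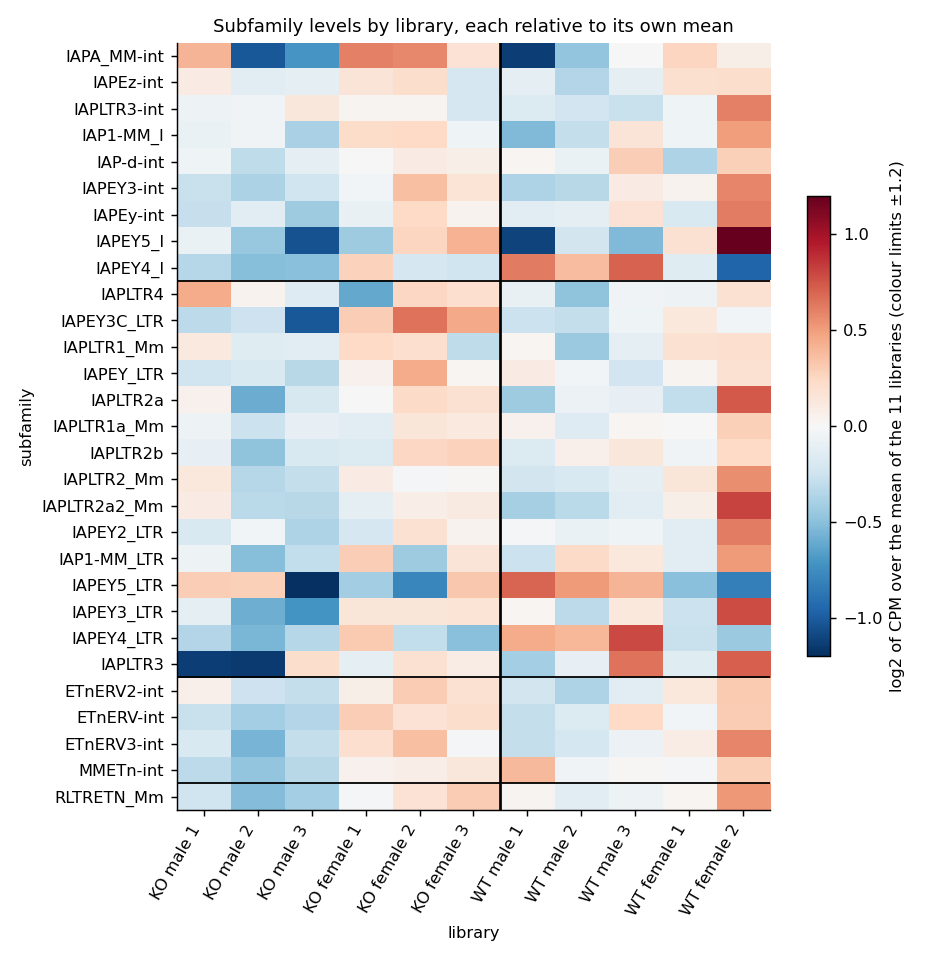
Log2 of CPM over the mean of the 11 libraries (colour, limits ±1.2) for the 29 subfamilies (rows, grouped by class) in KO libraries (left of the line) and WT libraries (right of it). WT female 2 is the highest library for 17 of the 29 rows and KO male 2 the lowest for 12, while IAPEY4_I and IAPEY4_LTR are highest in the 3 WT males.

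With genotype in the model, 3 of the 5 ETn/MusD subfamilies were called lower in male than in female libraries. They were the 3 called lower of the 29, with 0 called higher, where 2.46% of all entries were called lower, 1.83% higher and 4.29% in either direction. Lower levels in males were common to repeats, as 171 of all 1085 repeat subfamilies tested and 36 of 237 other ERVK subfamilies were also called lower, a larger share than 3 of 29. All males were below all females for 3 of 29 (2.40% of all entries, and 81 of the 1085 repeats) and above them for 0 (2.67%); these 3 were ETnERV2-int, ETnERV3-int and IAPEY3C_LTR. ETnERV3-int averaged 5.22 ± 0.57 CPM in males and 7.46 ± 1.26 CPM in females (SD, n = 6 and n = 5), a log2 difference of −0.53 (SE 0.12, edgeR adjusted p = 0.0411). RLTRETN_Mm averaged 6.85 ± 0.98 CPM in males and 9.19 ± 1.43 CPM in females, a log2 difference of −0.46 (SE 0.11, edgeR adjusted p = 0.0471). ETnERV2-int averaged 7.12 ± 0.77 CPM in males and 9.35 ± 0.68 CPM in females, a log2 difference of −0.39 (SE 0.10, edgeR adjusted p = 0.0471). The other ETn/MusD subfamilies did not pass, with ETnERV-int at −0.40 (SE 0.12, edgeR adjusted p = 0.0651) and MMETn-int at −0.26 (SE 0.12, edgeR adjusted p = 0.172). MMETn-int averaged 26.2 CPM in WT males and 26.3 CPM in WT females, and WT male 1 was its highest library. The lowest difference was −0.96 (SE 0.30) for IAPEY5_I and the highest 0.61 (SE 0.38) for IAPEY5_LTR, both scarce. In all, 26 of 29 differences were below 0, as were 50.5% of those of all entries and 97.1% of those of all repeats, with medians of −0.32 over the 29 and −0.48 over all repeats. The exceptions were IAPEY4_I at 0.22 (SE 0.28), IAPEY4_LTR at 0.23 (SE 0.24) and IAPEY5_LTR. All 3 calls were lost without any 1 of KO females 1, 2 and 3, KO males 2 and 3, WT female 2 and WT males 1 and 2, and kept without WT female 1 or WT male 3; without KO male 1 the call of ETnERV2-int alone was kept. File names of male and female libraries follow different styles, so sex and any difference in preparation cannot be told apart.

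Between KO and WT cells, no gene on a list for silencing and DNA methylation passed the edgeR test. The list includes Tet1, Tet2 and Tet3, which remove DNA methylation, so its counts and median mix opposing activities. Their log2 fold changes over both sexes were 0.12, 0.03 and 0.15, with edgeR adjusted p above 0.05. Of the 35 genes listed, 35 were tested over both sexes and 0 were called. In this contrast 20 were positive and the median log2 fold change was 0.03, against −0.02 over all entries. Setdb1, the H3K9 methyltransferase that acts with TRIM28, was at 50.1 ± 3.97 CPM in KO and 43.6 ± 4.82 CPM in WT libraries, with a log2 fold change of 0.21 (SE 0.09, edgeR adjusted p = 0.263). Dnmt3a, a DNA methyltransferase, was at 0.24 (SE 0.08, edgeR adjusted p = 0.202). Zfp809, a zinc finger protein that brings TRIM28 to proviral primer binding sites, was at 27.0 ± 3.83 CPM in KO and 33.1 ± 5.08 CPM in WT libraries, a log2 fold change of −0.33 (SE 0.11, edgeR adjusted p = 0.195). H3f3a and H3f3b, the histone H3.3 genes, which have near-identical copies and so uncertain counts, were at 0.32 (SE 0.10, edgeR adjusted p = 0.182) and 0.21 (SE 0.08, edgeR adjusted p = 0.211). In males 13 of 35 were positive and 0 called. At an unadjusted p under 0.05 edgeR had 6 of the 35 over both sexes and 5 in males. Of all entries tested, 17.2% and 22.2% had such a p. DESeq2 called 0 of the 35 over both sexes and 1, lower, in males, against 546 and 2126 of all entries. With limma-voom 3 were called higher and 1 lower over both sexes, and 4 higher and 1 lower in males. Over all entries tested it called 3260 of 22298 and 4584 of 22960. Between the sexes, with genotype in the model, edgeR called 1 of the 35 and DESeq2 2, all higher in males. Of all entries tested, edgeR called 4.29% and DESeq2 called 2845. The edgeR call, looked up after its values were seen, was Chaf1b, a subunit of the chromatin assembly factor CAF-1. Its male minus female log2 difference was 0.74 (SE 0.15, edgeR adjusted p = 0.0322). On a list of 15 proliferation genes, 15 were higher in males, with a median of 0.80 and 3 called by edgeR. The part of proliferation in the Chaf1b value was not tested.

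Of 12 genes that act against retroviral or retroelement nucleic acid, 12 were tested, 10 were positive over both sexes, with a median of 0.12, and edgeR called 0, with 3 at an unadjusted p under 0.05. DESeq2 also called 0, and limma-voom called 3, all higher. Of all 22298 entries tested, 17.2% had an unadjusted edgeR p under 0.05, DESeq2 called 546 and limma-voom 3260. In males 9 of 12 were positive, with a median of 0.23, and edgeR called 0, with 5 at an unadjusted p under 0.05. DESeq2 called 2 of the 12 in males and limma-voom 5, all higher. Of all 22960 entries tested in males, 22.2% had an unadjusted edgeR p under 0.05, DESeq2 called 2126 and limma-voom 4584. Serinc3, a membrane protein that lowers the infectivity of retroviral particles, was at 355 ± 22.2 CPM in KO and 302 ± 21.4 CPM in WT libraries, a log2 fold change of 0.23 (SE 0.08, edgeR adjusted p = 0.191). Trex1, the cytosolic DNA exonuclease that removes ligands of cGAS, was at 0.32 (SE 0.12, edgeR adjusted p = 0.232). Serinc5 was at 0.25 (SE 0.11), the RNA helicase Mov10 at 0.13 (SE 0.07) and Apobec3, a cytidine deaminase that acts on reverse transcripts, at 0.28 (SE 0.16), all with an edgeR adjusted p above 0.05. The part of the leukocyte markers, given above, in these values was not tested.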

How the data were processed

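Total RNA of primary lung fibroblasts was sequenced after ribodepletion, per the labels' protocols; cells were grown in 5% CO2 and 5% O2, though the extraction protocol describes pulverized tissue. The authors deposited raw counts, 1 table per library, that were not normalized. Per the submitters' processing notes, Trim Galore and STAR (versions not named) were used with the GRCm39 genome. The counting software, strand setting, repeat annotation and treatment of reads with several genomic matches are not given in the sources used here. Since IAP and ETn/MusD copies are near-identical, that treatment decides how reads are shared among subfamilies, and without strand, reads of overlapping genes and repeats cannot be told apart. Symbols were taken from GENCODE vM21 (GRCm38), which named 52073 of 56980 gene IDs.

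Here, all 58223 entries were fitted together with edgeR 4.0.16 in R 4.3.3 (quasi-likelihood F-test, TMM factors 0.951 to 1.04, filterByExpr with a minimum count of 10). Benjamini-Hochberg adjustment ran over every entry tested, and 0.05 was the threshold for a call. The contrasts over both sexes and of males with females used sex and genotype (8 residual degrees of freedom), and the others a mean per genotype and sex (7). SE is the log2 fold change over the square root of F. CPM used TMM-scaled library sizes. Correlations used log2(CPM + 0.05) and 100000 permutations, or exact ones among males, with adjustment over 9 relations; 1 of them, of IAPEY4_I with the contractile list, is not reported, as that list was written after values were seen. Libraries of the same group were compared by chi-square, which was 12.0 to 144 per degree of freedom, and none were identical. Correlations of deviations from group means showed no pairing by replicate number (r of −0.139 to 0.0689 for same numbers, −0.226 to 0.181 for others). In females they cannot decide this, since the deviations of the WT females mirror each other, so pairing is not excluded. The code was tested on simulated data.

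The members and lists were chosen with earlier results of these data known, and the contractile list after IAPEY4 values were seen. Members named were those past the threshold; per class, the 3 with the highest mean CPM and the 3 with the smallest p over both sexes; and the highest and lowest fold change in each contrast. Of the silencing and restriction lists, the 5 genes with the smallest p were named, and the Tet genes as ones that remove DNA methylation. IAPEY3C_LTR, IAPLTR2a2_Mm, the 3 repeats called higher in KO than in WT males and the contractile genes were named after their values were seen. So were the markers Krt19, Sftpc, Sftpb and Cd3e. Alternatives were DESeq2 1.42.0, limma-voom 3.58.1, other scalings, no filter, a replicate block, no sex term, fits within sex (added after seeing the data) and leaving out each library.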

Additional observations from a re-analysis of the deposited data

Results flagged for a closer look

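Of 50 groups of libraries examined for a single library far from the rest (Dixon's criterion at 95%, which chance meets in about 1 in 20 groups), 6 had one. KO female 1 had the highest IAPEY4 levels of the 6 KO libraries, with IAPEY4_I at 117.8 CPM where the other 5 had 68.26 to 84.62 CPM, and IAPEY4_LTR at 6.459 CPM where the other 5 had 3.559 to 4.236 CPM. Without KO female 1 the female log2 fold change of IAPEY4_LTR was −0.03.

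WT female 2, the library with the highest repeat share, was far above the other 4 WT libraries for IAPLTR3-int, at 7.008 CPM against 3.831 to 4.47 CPM. It was also far above them for RLTRETN_Mm, at 11.32 CPM against 7.271 to 8.074 CPM. Its IAP LTR counts per 100 internal counts were 24.12, where the other 4 had 18.65 to 19.22.

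WT male 2 had the lowest summed level of IAP internal parts among WT libraries, 464.5 CPM where the other 4 had 547.1 to 576.5 CPM.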

How the results depend on the processing

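Over both sexes, 0 of 29 subfamilies were called in either direction with edgeR, under other scalings, without a filter, without a sex term, and with DESeq2; 3 were called lower by limma-voom with sample quality weights, and leaving out 1 library gave 0 to 1 (MMETn-int, without WT female 1). Over all entries, called counts were 1 with edgeR, 546 with DESeq2, 3260 with limma-voom and 1678 without WT female 1. In males the count called lower was 2 in the main analysis, 3 with DESeq2 and 4 with limma-voom. Of all 22960 entries tested, these called 459, 2126 and 4584. The male count was 1 with RLE size factors (IAPEY4_LTR lost, edgeR adjusted p = 0.0505). It was 0 with TMM factors from Ensembl genes only, 0 in a fit on males alone and 0 to 3 without 1 library. Correlations showed no pairing by replicate number but cannot exclude it. With the replicate number as a block the male count was 0 (edgeR adjusted p = 0.131 for both IAPEY4 parts) and the count over both sexes 0. The block leaves fewer residual degrees of freedom. Without 1 library, female counts were 0 to 1 higher and 0 to 2 lower, and those of the difference between sexes 0 to 2 higher and 0 to 2 lower, where DESeq2 called 2 lower. For males minus females the count called lower was 3, with DESeq2 5, and 0 to 9 without 1 library.

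Leaving out either WT female leaves 1 library in that group, whose spread is then taken from the other groups. The sign of small fold changes over both sexes turned under some settings. IAPLTR1_Mm was at −0.0017 with RLE size factors, −0.0016 with DESeq2 and −0.016 with TMM factors from genes, where IAPEz-int was at −0.0050. With limma-voom, IAPLTR3-int was at 0.165 and IAPA_MM-int at −0.057; with the block, IAPLTR3-int was at 0.041. With library sizes from repeats only, ETnERV-int was at 0.118, ETnERV3-int at 0.085, IAPLTR3-int at 0.225, IAPEy-int at 0.031, IAPLTR2_Mm at 0.093 and IAPLTR1a_Mm at 0.121. Leaving out 1 library gave ranges that crossed 0, of −0.081 to 0.081 for IAPLTR1_Mm, −0.049 to 0.080 for IAPEz-int, −0.049 to 0.060 for ETnERV2-int, −0.107 to 0.143 for IAPLTR3-int, −0.00061 to 0.372 for IAPA_MM-int, −0.502 to 0.0091 for IAPEY5_I and, in females, −0.033 to 0.399 for IAPEY4_LTR. As shares of repeat counts the IAP internal and LTR sums had log2 ratios of 0.10 and 0.11. Both ratios include WT female 2, the library with the highest repeat share. The cause of these changes was not tested. With 3 to 12 counts per library, IAPEY5_LTR is limited by depth.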
